A study of Mus musculus with 8 samples.

Results

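The genes described here are 37 mouse genes of the integrated stress response and of amino acid supply, taken by symbol from the authors' 3 comparison tables of 50600 genes. Each of the 37 symbols stood once in every table, and all are protein-coding genes in GENCODE M21. Of the 37, 36 had an adjusted p in the DMSO and I-CBP112 tables; the other, Cbs, with a mean normalised count of 17.5, lay below the lowest mean of a gene adjusted there, 26.1. The RNA came from C57BL/6 mouse embryonic fibroblasts carrying retroviruses for the GHMT factors (Gata4, Hand2, Mef2c and Tbx5), which push fibroblasts towards heart muscle cells; all groups carried them. The groups were 1% DMSO, 5 µM I-CBP112 (a ligand of the CBP and p300 bromodomains), 5 µM C646 (an inhibitor of CBP and p300 acetyltransferase activity) and 0.1% ethanol, each for 7 days and with 2 libraries. The labels do not say in what the inhibitors were dissolved, or whether a group's libraries came from separate cultures, so the errors may measure technical spread only. The library titles carry the numbers 2 and 3 in every group. Whether libraries of equal number share a culture or a batch is not stated. The part of a solvent and that of the compound in the inhibitor values cannot be told apart. The tables name no reference group, which was read as ethanol, the group that has no table.

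In the integrated stress response, kinases that sense amino acid shortage, unfolded protein, haem shortage or viral RNA phosphorylate the translation factor eIF2α. General translation then slows while the mRNA of the transcription factor ATF4 is translated more, so that ATF4 protein can change with little change of its mRNA. ATF4, often paired with C/EBP proteins, binds composite C/EBP-ATF elements and raises genes for amino acid synthesis, amino acid uptake and tRNA charging, together with feedback regulators such as TRIB3, CHAC1 and the phosphatase subunit encoded by Ppp1r15a. In fibroblasts serine, glycine and proline made by these enzymes feed collagen, which is rich in glycine and proline.

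The promoters of the genes were searched for the core of that composite element, TGATGNAA, on both strands of the 300 bases from 250 before to 50 after each RefSeq start (GRCm38.p6). The RefSeq table held 30 of the 37 genes; Slc7a3, Slc7a5, Slc1a5, Eif4ebp1, Cth, Wars and Nars had no entry. The core was present in 11 of the 30 (36.7%), against 1219 of all 27025 genes in the table (4.51%). These were Aars, Asns, Atf3, Chac1, Gars, Nupr1, Pycr1, Slc1a4, Tars, Trib3 and Vldlr, and with the narrower TGATGCAA the counts were 8 of 30 (26.7%) and 279 of 27025 (1.03%). The ER stress element, written CCAATN9CCACG, was present in 0 of the 30 and in 0.137% of all. A match of these letters is a description and not a measured binding site. The windows below hold the core with 11 bases on each side for genes that changed in these data or that define the response; capitals mark the core, which appears as TTNCATCA where it lies on the opposite strand.
Atf3, chr1:191183425-191183454, minus strand: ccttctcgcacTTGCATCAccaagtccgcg
Chac1, chr2:119351038-119351067, plus strand: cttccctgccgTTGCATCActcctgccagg
Trib3, chr2:152344028-152344057, minus strand: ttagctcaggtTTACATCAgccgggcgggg
Asns, chr6:7693214-7693243, minus strand: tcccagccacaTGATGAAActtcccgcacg
Pycr1, chr11:120643833-120643862, minus strand: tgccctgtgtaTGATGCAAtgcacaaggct
Slc1a4, chr11:20332699-20332728, minus strand: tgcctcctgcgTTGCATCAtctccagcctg
Gars, chr6:55037960-55037989, plus strand: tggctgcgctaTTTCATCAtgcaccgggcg
Counted from the RefSeq start, the core began at base -110 in Atf3, -193 in Chac1, -23 in Asns, -103 in Pycr1, -4 in Slc1a4, -30 in Gars and 15 in Trib3. These positions depend on the start chosen: of the 35 windows of the 30 genes, 18 began their transcript at a GENCODE M21 start. By the GENCODE limits of Trib3, its core lies before the gene. Longer stretches are shown for Pycr1 and Slc1a4, from 250 bases before the start and with the core in capitals. Against ethanol, the RNA of the enzyme Pycr1 passed as lower with DMSO and with I-CBP112, that of the transporter Slc1a4 with I-CBP112 only.
Pycr1, chr11:120643774-120643998, minus strand: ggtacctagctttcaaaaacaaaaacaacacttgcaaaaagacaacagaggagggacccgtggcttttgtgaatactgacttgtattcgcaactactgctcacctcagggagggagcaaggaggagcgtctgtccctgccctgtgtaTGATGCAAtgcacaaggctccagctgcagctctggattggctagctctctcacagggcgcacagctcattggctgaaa
Slc1a4, chr11:20332710-20332963, minus strand: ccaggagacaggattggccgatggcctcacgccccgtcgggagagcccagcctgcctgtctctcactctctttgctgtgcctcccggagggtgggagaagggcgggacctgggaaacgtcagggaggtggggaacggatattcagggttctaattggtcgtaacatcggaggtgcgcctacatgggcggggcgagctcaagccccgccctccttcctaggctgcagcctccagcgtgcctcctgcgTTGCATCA

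In GENCODE M21 (GRCm38), Trib3 (ENSMUSG00000032715.9) lies on chromosome 2 from 152337422 to 152344032 on the minus strand, and Slc43a2 (ENSMUSG00000038178.16) on chromosome 11 from 75531694 to 75577575 on the plus strand. Atf5, Ddit3, Psph and Cebpb overlap a gene on the opposite strand and share 2.76%, 6.78%, 9.79% and 19.6% of their 31-base words with other genes, and reads of those stretches may not be told apart, since strand use in counting is not stated. No values of single libraries were given in the tables, so each level below is a group mean normalised count over 2 libraries, rebuilt from the overall mean and the 3 fold changes, and each error is the authors' standard error (SE). For the 36 genes the SE of a log2 fold change against ethanol had a median of 0.14 or 0.15 in each table, with a range of 0.11 to 0.45 for DMSO. The depth of single libraries is unknown from these values. Fibroblast markers were present in every group: the summed level of 10 of them was 656347.8 with DMSO, 626127.8 with I-CBP112, 1007187.6 with C646 and 1023598.7 with ethanol. The summed level of 7 cardiac muscle markers was 265030.1, 287334.4, 105604.4 and 103320.8 in the same groups. A set of 9 macrophage markers summed to 3521.6, 2832.1, 3213.7 and 3420.6. Lyz2 made up most of each sum, at 2375.0, 1775.9, 1991.9 and 2132.4. Cd14 was also slightly higher with DMSO than with ethanol. Ptprc, Cd68, Adgre1, Csf1r, Itgam, Tyrobp and Fcer1g were lower, and 0 of the 8 macrophage markers tested passed with DMSO. In the same order, 6 endothelial markers summed to 588.6, 663.5, 1007.0 and 1012.2, with Tek at 190.9, 249.3, 462.2 and 451.3. Most of each sum came from Tek and Kdr, with Kdr at 366.8, 393.1, 516.6 and 525.3. The defining gene Pecam1 was low, at 16.3 with DMSO and 14.9 with ethanol. Of the remaining genes, all low, Tie1 was higher with DMSO than with ethanol, and Cdh5 and Emcn were lower. The sums of 5 epithelial markers were 39.7, 39.7, 115.9 and 118.1, with Krt14 at 5.28, 5.86, 47.6 and 55.1 and the defining gene Epcam at 0.451, 1.01, 0.475 and 0.158. In bulk RNA, fewer cells of a type and less RNA per cell cannot be told apart, and the part of these marker differences in the values below was not tested.

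**Figure D1:**
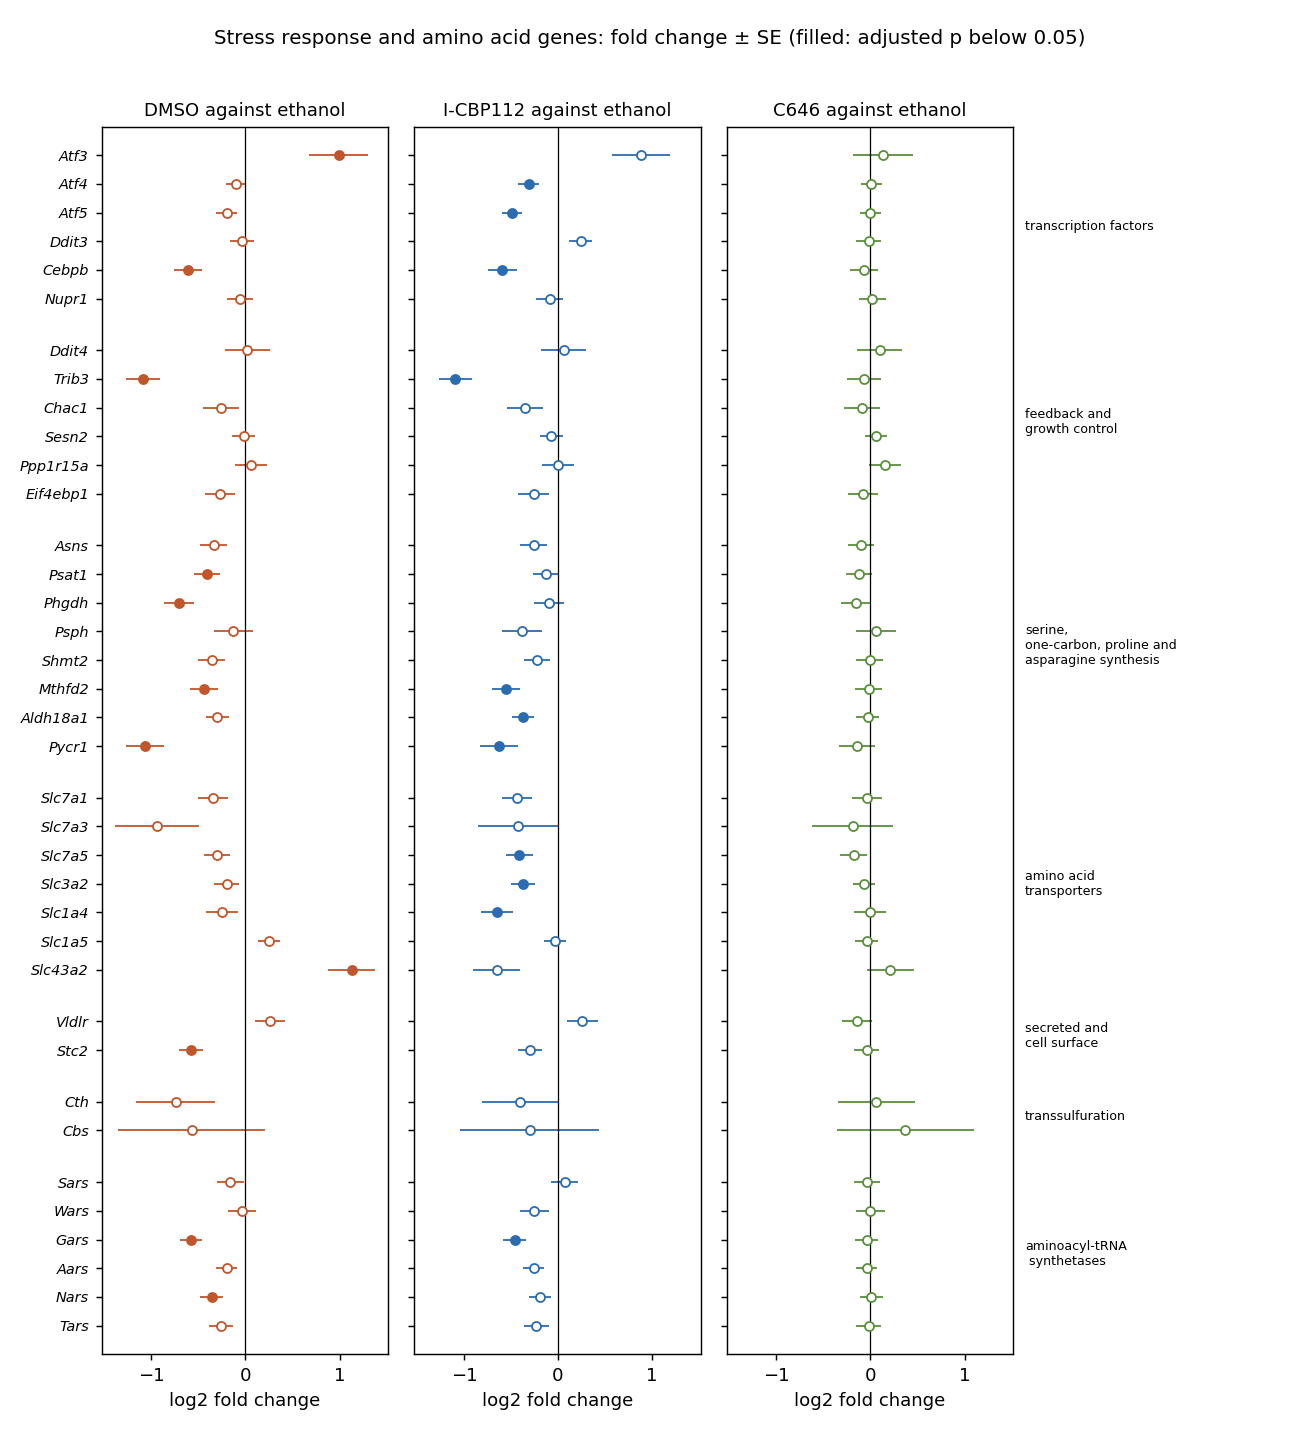
Log2 fold change against ethanol (x axis) of the 37 genes (rows, grouped by role) for DMSO, I-CBP112 and C646, with bars of ± 1 SE from the authors' deposited tables and filled points past adjusted p 0.05. Most points lie left of 0 with DMSO and I-CBP112, Atf3 lies to the right with both, and the tested genes lie between -0.19 and 0.21 with C646.

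The first comparison sets 1% DMSO against 0.1% ethanol. Most values lay below 0 with DMSO, and the lowest were those of the proline enzyme Pycr1 and the feedback regulator Trib3, each at less than 50% of its ethanol level. The serine enzymes Phgdh and Psat1 also fell, whereas Atf3 and the transporter gene Slc43a2 rose about 2-fold. At the 0.05 threshold, 11 of 36 genes passed, against 16.0% of all 14830 genes tested: 9 were lower (7.90% of all) and 2 higher (8.07% of all). The median log2 fold change of the 36 was -0.26, against 0.03 for all genes tested, and 30 of 36 values were below 0. At an unadjusted p below 0.05 stood 19 of the 36, against 26.3% of all. The 25 genes that did not pass ran from -0.94 to 0.26. These p-values take the statistic as normal; read from Student's t with 4 degrees of freedom, 0 of the 36 genes passed here and 0 in each other comparison, and 1 of all genes passed with DMSO. Asking for a change of at least 2-fold left Trib3, Pycr1 and Slc43a2 here and Trib3 with I-CBP112.

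Among the transcription factors, Atf3, a stress-induced factor of the ATF/CREB family, had a mean normalised count of 455.0 in DMSO and 229.9 in ethanol. Its log2 fold change was 0.99 ± 0.31 in the authors' deposited table (adjusted p = 0.0148). Cebpb, which encodes the ATF4 partner C/EBPβ, moved the other way, with 893.0 in DMSO and 1364.5 in ethanol, a fall of 0.61 ± 0.15 in the authors' deposited table (adjusted p = 0.000899). Tmem189, which overlaps Cebpb and shares 19.6% of its 31-base words, stood at 0.00 ± 0.13 in the authors' deposited table. Atf4 mRNA had 8208.2 in DMSO and 8810.9 in ethanol, and in the authors' deposited table its value of -0.10 ± 0.11 did not pass (adjusted p = 0.623). Ddit3, which encodes the ATF4 target CHOP, a factor linked to cell death under stress, was at 2129.9 in DMSO and 2184.1 in ethanol (-0.04 ± 0.13 in the authors' deposited table, adjusted p = 0.906). Atf5, an ATF4 relative under the same translational control, and Nupr1, a small stress-induced nuclear protein, did not pass either, at -0.20 ± 0.11 and -0.06 ± 0.14 in the authors' deposited table.

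Of the 6 feedback and growth regulators 1 passed (16.7%), near the 16.0% of all genes tested. Trib3, a pseudokinase that binds ATF4 and restrains it, had 326.3 in DMSO and 693.4 in ethanol, 2.12 times lower (a fall of 1.09 ± 0.18 in the authors' deposited table, adjusted p = 7.11e-08). The other 5 did not pass. In the authors' deposited table the glutathione-degrading enzyme gene Chac1 had a value of -0.26 ± 0.19 and Eif4ebp1, a translation repressor, one of -0.27 ± 0.16. Sesn2, a leucine sensor that restrains mTORC1, was at -0.02 ± 0.12, the mTORC1 inhibitor Ddit4 at 0.02 ± 0.24 and Ppp1r15a at 0.06 ± 0.17 in the authors' deposited table.

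All 8 synthesis enzymes had negative values and 4 of 8 fell, beside 7.90% of all genes tested that were lower with DMSO. Among roles with more than 2 genes, the synthesis enzymes had the highest share that fell. Pycr1, the last enzyme of proline synthesis in mitochondria, had 304.8 in DMSO and 638.9 in ethanol (a fall of 1.07 ± 0.20 in the authors' deposited table, adjusted p = 2.31e-06). Phgdh, which opens serine synthesis, had 2333.9 in DMSO and 3806.6 in ethanol (a fall of 0.71 ± 0.16 in the authors' deposited table, adjusted p = 0.000315). Of the 31-base words of Phgdh transcripts 56.3% also occur in other genes, chiefly Gm7901, whose own mean normalised count was 2.31. Psat1, the next serine enzyme, fell in the authors' deposited table by 0.41 ± 0.14 (adjusted p = 0.021), and Mthfd2, of the mitochondrial folate cycle, fell by 0.44 ± 0.15 (adjusted p = 0.0209). Shmt2, which splits serine into glycine and a one-carbon unit, stood at -0.36 ± 0.14 (adjusted p = 0.0642), Asns, asparagine synthetase, at -0.34 ± 0.14 (adjusted p = 0.0919) and Aldh18a1, the first enzyme of proline synthesis, at -0.30 ± 0.12 (adjusted p = 0.0867) in the authors' deposited table. Psph, which completes serine synthesis, was at -0.13 ± 0.21 there.

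Of the 7 amino acid transporters 1 passed (14.3%), near the 16.0% of all genes tested. Slc43a2, a carrier of large neutral amino acids, rose, with 1027.2 in DMSO and 468.2 in ethanol (1.13 ± 0.25 in the authors' deposited table, adjusted p = 0.000103). Its opposite-strand neighbour Gm45606, with a mean normalised count of 19.1, shares 9.43% of its words. None of the other 6 passed: in the authors' deposited table they ran from -0.94 ± 0.45 for the arginine and lysine carrier Slc7a3, at 44.5 in DMSO and 85.3 in ethanol, to 0.25 ± 0.12 for the glutamine carrier Slc1a5, with Slc7a1, Slc7a5, Slc3a2 and Slc1a4 between them. Of the 6 tRNA synthetase genes all were negative and 2 passed (33.3%), beside 16.0% of all genes tested. Gars, which charges glycine tRNA, had 5006.0 in DMSO and 7463.8 in ethanol (a fall of 0.58 ± 0.12 in the authors' deposited table, adjusted p = 3.01e-05), and Nars, for asparagine, fell by 0.36 ± 0.12 there (adjusted p = 0.0171). Sars, Wars, Aars and Tars, for serine, tryptophan, alanine and threonine, did not pass, with means in DMSO of 6153.2, 1949.1, 9706.9 and 2887.3 beside 6861.5, 2003.3, 11157.3 and 3452.8 in ethanol. Stc2, a secreted glycoprotein induced by ER stress, fell too, with 1161.6 in DMSO and 1742.0 in ethanol (by 0.58 ± 0.13 in the authors' deposited table, adjusted p = 0.000268). Vldlr, a lipoprotein receptor induced through ATF4, was at 0.26 ± 0.16 and Cth, which makes cysteine from cystathionine, at -0.74 ± 0.42 in the authors' deposited table, and neither passed. Cbs, the enzyme that makes cystathionine, had 12.5 in DMSO and 18.6 in ethanol.

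The second comparison sets 5 µM I-CBP112 against 0.1% ethanol, and does not separate the ligand from its solvent. Here 11 of 36 genes were lower and 0 higher, against 9.90% of all genes tested in either direction, 5.25% lower and 4.65% higher. The factors Atf4, Atf5 and Cebpb, the regulator Trib3, the enzymes Pycr1, Mthfd2 and Aldh18a1, the transporters Slc1a4, Slc7a5 and Slc3a2 and the synthetase Gars made up the 11. The median of the 36 was -0.28, against 0.01 for all genes tested. Adjusted over all genes with a p-value, 7 were lower, and Atf4, Aldh18a1, Slc7a5 and Slc3a2 no longer passed. Scaled to equal totals, 8 were lower and 1, Atf3, was higher, with Atf4, Slc7a5 and Slc3a2 no longer past the test. The 25 genes that did not pass ran from -0.65 to 0.88, and 16 of the 36 had an unadjusted p below 0.05, against 19.3% of all.

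Atf4 mRNA itself was lower with I-CBP112, by a small margin: 7110.0 with I-CBP112 and 8810.9 with ethanol, a fall of 0.31 ± 0.11 in the authors' deposited table (adjusted p = 0.049). Atf5 had 3681.2 with I-CBP112 and 5167.8 with ethanol (a fall of 0.49 ± 0.11 in the authors' deposited table, adjusted p = 0.000409). Cebpb had 906.4 with I-CBP112 and 1364.5 with ethanol, a fall of 0.59 ± 0.15 in the authors' deposited table (adjusted p = 0.00221). Against these 3 falls stood 2 factors with positive values that did not pass. Atf3 had 421.9 with I-CBP112 and 229.9 with ethanol (0.88 ± 0.31 in the authors' deposited table, adjusted p = 0.0521), and Ddit3 had 2586.7 and 2184.1 in the same order (0.24 ± 0.12 in the authors' deposited table, adjusted p = 0.262). Trib3 was again the most reduced of the 36 genes, with 325.7 with I-CBP112 and 693.4 with ethanol (a fall of 1.09 ± 0.18 in the authors' deposited table, adjusted p = 1.17e-07).

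With I-CBP112 5.25% of all genes tested were lower, the share to set beside the counts by role. Of the 7 amino acid transporters, 3 were lower with I-CBP112 and all 7 values were negative. Slc1a4, a carrier of alanine, serine and cysteine, had 1300.8 with I-CBP112 and 2043.2 with ethanol (a fall of 0.65 ± 0.17 in the authors' deposited table, adjusted p = 0.00205). Slc7a5 and Slc3a2, the light and heavy chains of the LAT1 leucine exchanger, fell in the authors' deposited table by 0.41 ± 0.14 (adjusted p = 0.0447) and 0.37 ± 0.13 (adjusted p = 0.0368). Slc7a1, a carrier of arginine and lysine, was at -0.44 ± 0.16 (adjusted p = 0.0641) and Slc43a2 at -0.65 ± 0.25 (adjusted p = 0.0867) in the authors' deposited table, neither past the test. Of the synthesis enzymes 3 of 8 were lower. In the authors' deposited table Pycr1 fell by 0.63 ± 0.20 (adjusted p = 0.0183), Mthfd2 fell by 0.55 ± 0.15 (adjusted p = 0.00327) and Aldh18a1 fell by 0.37 ± 0.12 (adjusted p = 0.0322). In it Phgdh was at -0.10 ± 0.16, Psat1 at -0.13 ± 0.14 and Asns at -0.26 ± 0.14, with adjusted p of 0.859, 0.732 and 0.314. Gars had 5433.6 with I-CBP112 and 7463.8 with ethanol, and was the 1 synthetase of 6 that fell (by 0.46 ± 0.12 in the authors' deposited table, adjusted p = 0.0023). The 5 other feedback and growth regulators, among them Chac1 at -0.35 ± 0.19 and Sesn2 at -0.07 ± 0.12 in the authors' deposited table, did not pass.

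**Figure D2:**
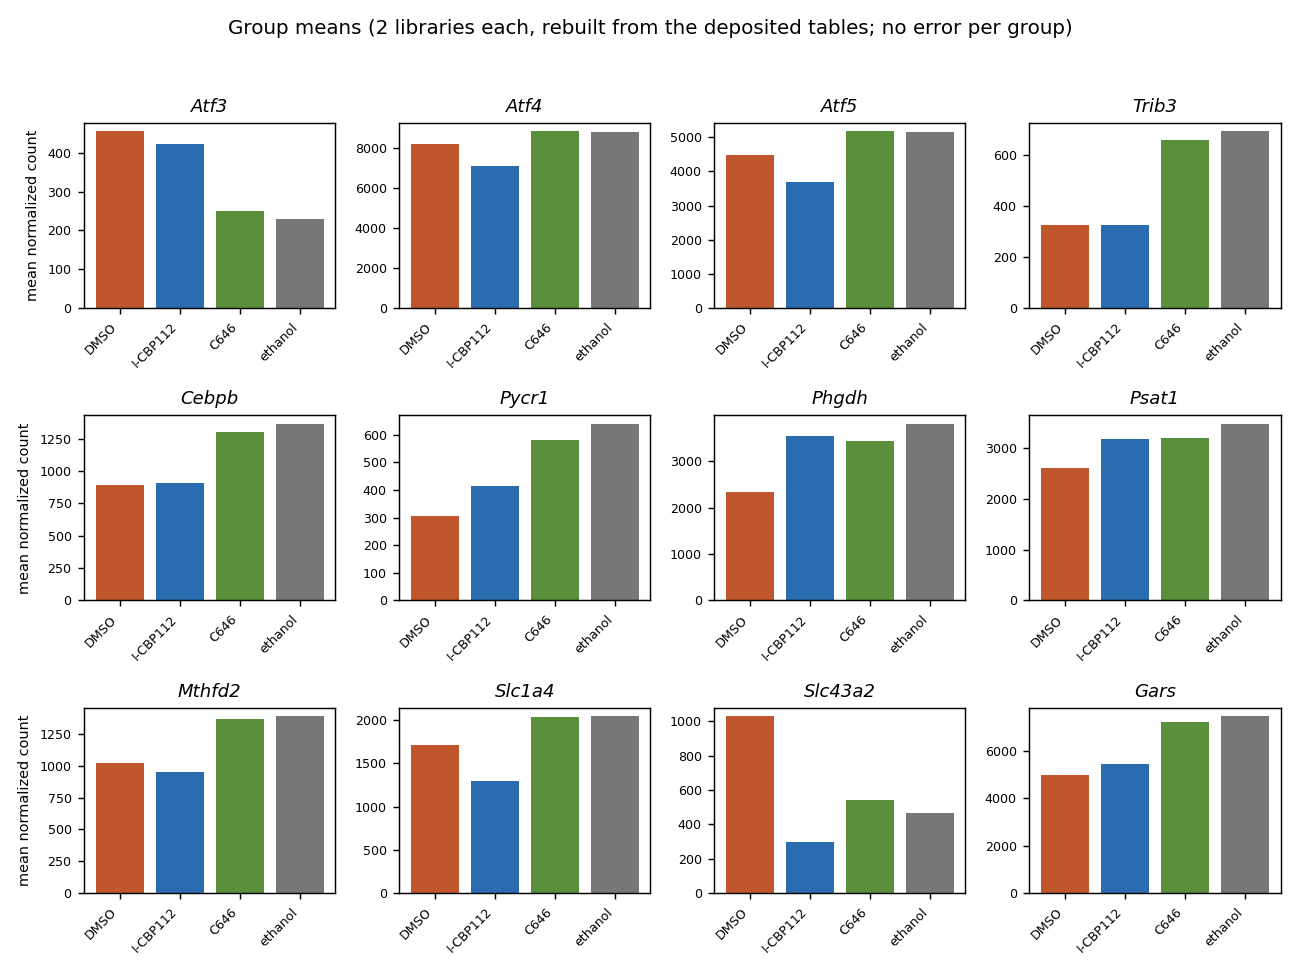
Mean normalised count (y axis, from 0, a separate scale per gene) in DMSO, I-CBP112, C646 and ethanol for a selection of the genes, each bar a mean of 2 libraries rebuilt from the deposited tables and without an error per group. Trib3 stands at 326.3, 325.7, 660.0 and 693.4, Slc43a2 at 1027.2, 299.2, 543.4 and 468.2.

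The third comparison sets 5 µM C646 against 0.1% ethanol. None of the 37 genes passed in the authors' DESeq2 table, and 0 had an unadjusted p below 0.05. Among all genes of the C646 comparison, 2 of 34250 passed (0.00584%, or 0.00292% in each direction). Of the 14830 genes also adjusted for DMSO and I-CBP112, 0.748% had an unadjusted p below 0.05. That is less than a threshold of 0.05 passes when no gene changes. The SEs may thus be too wide for this comparison, and the reason was not tested. The gene of the 36 with the lowest p was Slc7a5, at 1385.0 with C646 and 1572.8 with ethanol (p = 0.202 in the authors' deposited table). The 95% interval of the change stayed within 2-fold in both directions for 35 of 36 genes, the exception being Slc7a3 (from -1.03 to 0.65). For Trib3 it ran from -0.42 to 0.27 and for Atf4 from -0.21 to 0.22, both in log2 units.

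The treatments were then set against each other, with an SE worked out from those of the 3 tables, since no table compares them. Between I-CBP112 and DMSO 2 of 36 genes passed, against 6.97% of all genes tested, 1 higher (4.31% of all) and 1 lower (2.66% of all). Slc43a2 had 299.2 with I-CBP112 and 1027.2 with DMSO, a log2 difference of -1.78 ± 0.25 (adjusted p = 3.33e-10). Phgdh had 3550.4 with I-CBP112 and 2333.9 with DMSO, a difference of 0.61 ± 0.16 (adjusted p = 0.00631), which did not pass with the upper bound of the standard error. For Trib3 the difference was 0.00 with a 95% interval from -0.37 to 0.36, for Cebpb from -0.28 to 0.32, for Gars from -0.11 to 0.35 and for Atf4 from -0.42 to 0.01. Slc1a4, lower with I-CBP112 against ethanol but not with DMSO, differed between the treatments by -0.40 ± 0.17 (adjusted p = 0.153), and Atf5 by -0.28 ± 0.11 (adjusted p = 0.116). Pycr1 differed by 0.44 ± 0.20 (adjusted p = 0.201).

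**Figure D3:**
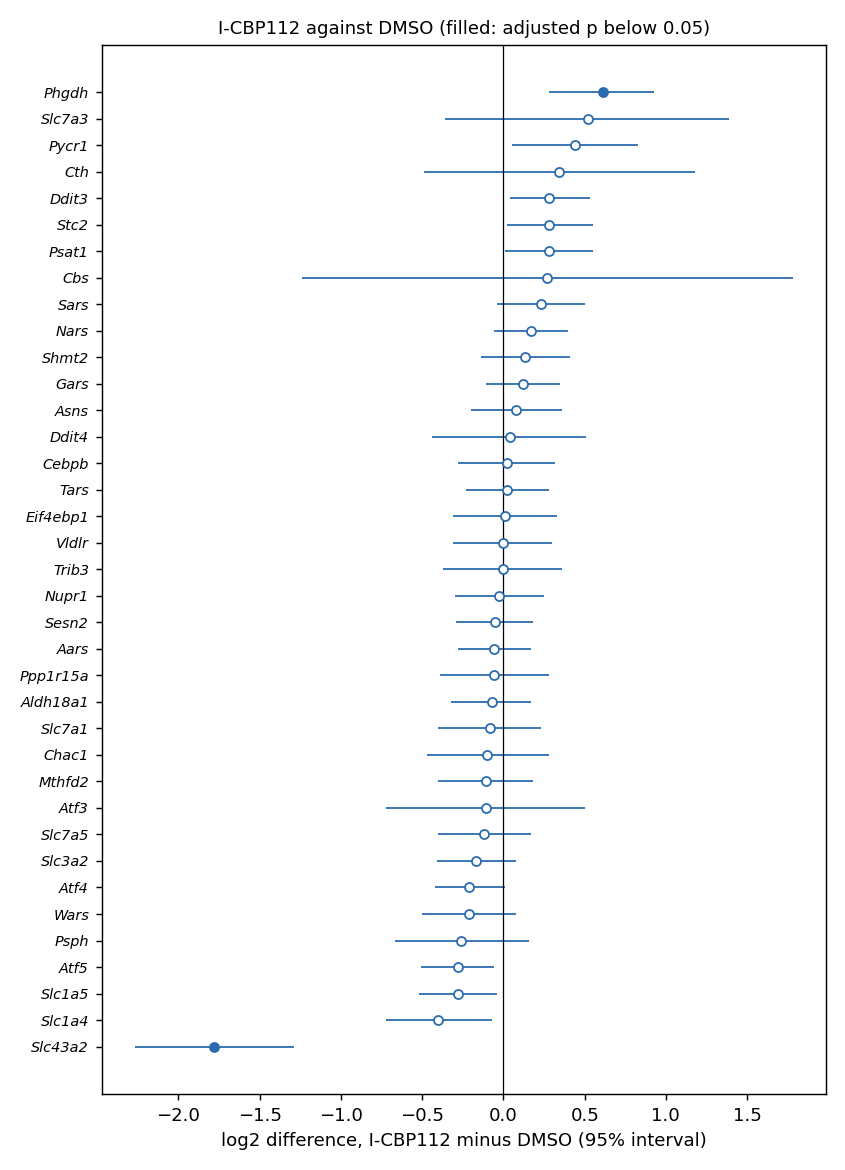
Log2 difference (x axis), I-CBP112 minus DMSO, of the 37 genes in order of value, with 95% intervals and filled points past adjusted p 0.05. Slc43a2 at -1.78 and Phgdh at 0.61 are the filled points.

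Against DMSO, C646 left 10 of 36 genes different, 8 higher and 2 lower, beside 15.8% of all genes tested, 7.98% higher and 7.86% lower. At an unadjusted p below 0.05 stood 15, beside 25.9% of all. Trib3 had 660.0 with C646 and 326.3 with DMSO, a difference of 1.02 ± 0.18 (adjusted p = 6.65e-07), and Pycr1 580.6 with C646 and 304.8 with DMSO, a difference of 0.93 ± 0.20 (adjusted p = 6.13e-05). Gars, Stc2, Phgdh, Cebpb, Mthfd2 and Nars were the other 6 higher, by 0.38 to 0.56, and Slc43a2 (-0.92 ± 0.25, adjusted p = 0.00261) and Atf3 (-0.86 ± 0.31, adjusted p = 0.0411) were lower. Of these 10, 3 (Trib3, Pycr1 and Gars) also passed with the upper bound of the standard error. I-CBP112 against C646 gave 8 of 36 lower and 0 higher, beside 9.80% of all genes tested, 5.11% lower and 4.69% higher. Trib3 had 325.7 with I-CBP112 and 660.0 with C646 (-1.02 ± 0.18, adjusted p = 1.1e-06), and this was the gene that also passed with the upper bound. Slc43a2, Slc1a4, Mthfd2, Cebpb, Atf5, Gars and Atf4 were the other 7, from -0.86 to -0.32. The comparisons share libraries, so these counts are not independent of those against ethanol.

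The changes fell on genes with and without the C/EBP-ATF core in the promoter window. With DMSO 3 of 11 genes with the core were lower and 1 higher, beside 5 of 19 lower and 1 higher without it. With I-CBP112 it was 4 of 11 lower and 6 of 19 lower, with medians of -0.26 and -0.30. The 19 include Cbs, which had no adjusted p with DMSO or I-CBP112 and so could not pass. Of all genes tested, 7.90% were lower and 8.07% higher with DMSO, and 5.25% were lower with I-CBP112. The difference between genes with and without the core was not tested.

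Other genes of the pathway moved in part. Of 17 tested further ATF4 targets, 4 were lower and 1 higher with DMSO, beside the 7.90% and 8.07% of all genes. Slc7a11, the cystine importer, fell by 1.26 ± 0.27, Bcat1, a branched-chain aminotransferase, by 0.88 ± 0.24 and the glycine transporter Slc6a9 by 0.71 ± 0.23, while Got1, the cytosolic aspartate aminotransferase, rose by 0.90 ± 0.14 in the authors' deposited table. With I-CBP112 2 were lower and 1 higher, and in the authors' deposited table Bcat1 fell by 1.29 ± 0.24, Slc7a11 fell by 1.23 ± 0.27 and Got1 rose by 0.86 ± 0.14. These lists were written with earlier results of the series known.

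The genes upstream of ATF4 and of the unfolded protein responses were counted beside 16.0% of all genes past the test with DMSO and 9.90% with I-CBP112. At an unadjusted p below 0.05 in the DESeq2 table stood 26.3% of all genes tested with DMSO. Of 17 genes for eIF2α kinases, eIF2, eIF2B and the phosphatase, 0 passed with DMSO, where 3 had an unadjusted p below 0.05 in the DESeq2 table. With I-CBP112 1 (5.88%) passed, Impact, an inhibitor of the kinase GCN2, at 0.46 ± 0.12 in the authors' deposited table (adjusted p = 0.00181); I-CBP112 and DMSO differed in it by 0.39 ± 0.12 (adjusted p = 0.0189). Of 22 ER chaperone and unfolded protein response genes 0 passed with DMSO (4 at an unadjusted p below 0.05 in the DESeq2 table) and 2 (9.09%) were lower with I-CBP112, close to the share of all genes. These were Edem1, of ER-associated degradation, at -0.49 ± 0.15 and the ubiquitin-like Herpud1 at -0.38 ± 0.13 in the authors' deposited table. Among 10 genes of the mitochondrial unfolded protein response, 2 passed with DMSO and 1 with I-CBP112, near those shares: the chaperone Hspa9 fell with DMSO by 0.54 ± 0.11 and the protease subunit gene Afg3l2 rose by 0.38 ± 0.13, and the protease Htra2 fell with I-CBP112 by 0.54 ± 0.16 in the authors' deposited table.

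The synthetases outside the 37 were taken by compartment. Of 16 cytosolic ones and their scaffold proteins 1 (6.25%) was lower with DMSO, beside 7.90% of all genes. Eprs, for glutamate and proline, fell by 0.49 ± 0.12 in the authors' deposited table. With I-CBP112 4 of 16 were lower, beside 5.25% of all genes: Iars by 0.47 ± 0.12, Eprs by 0.42 ± 0.12, Cars by 0.40 ± 0.14 and Mars by 0.40 ± 0.13 in the authors' deposited table. Mars overlaps Ddit3 on the opposite strand and shares 6.78% of the words of Ddit3 with it. Of 17 mitochondrial synthetase genes 2 (11.8%) rose with DMSO, beside 8.07% of all genes. These were Mars2, by 0.61 ± 0.18, and Cars2, by 0.47 ± 0.17 in the authors' deposited table. With I-CBP112 0 of the 17 passed, and 1 had an unadjusted p below 0.05 in the DESeq2 table, beside 19.3% of all genes.

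Further amino acid transporters went both ways. Of 20, 4 were higher and 4 lower with DMSO (8.07% and 7.90% of all genes), and 2 were higher and 4 lower with I-CBP112 (4.65% and 5.25% of all genes). Slc1a2, a glutamate transporter, rose by 2.81 ± 0.41 with DMSO and by 1.41 ± 0.41 with I-CBP112 in the authors' deposited tables, and the 2 treatments differed by -1.40 ± 0.40, I-CBP112 minus DMSO (adjusted p = 0.0104). Its relative Slc1a3 fell by 1.05 ± 0.15 with DMSO and fell by 1.31 ± 0.15 with I-CBP112 in the authors' deposited tables. The taurine transporter Slc6a6 rose by 0.75 ± 0.13 with DMSO and 0.60 ± 0.13 with I-CBP112, and the neutral amino acid transporter Slc38a4 fell by 0.80 ± 0.17 with DMSO and 0.75 ± 0.17 with I-CBP112 in the authors' deposited tables. Slc7a6, a carrier of basic and neutral amino acids, fell with I-CBP112 by 1.02 ± 0.17 in the authors' deposited table, and I-CBP112 minus DMSO was -0.83 ± 0.18 (adjusted p = 0.000149). Between I-CBP112 and DMSO 3 of the 20 passed, 1 higher (4.31% of all) and 2 lower (2.66% of all). The higher one was Slc38a1, with a difference of 1.01 ± 0.21 (adjusted p = 0.000107). Of 23 further serine, folate, proline and sulfur genes, 3 (13.0%) passed with DMSO, 1 higher and 2 lower, beside 16.0% of all genes tested. Their median log2 fold change was 0.01. Shmt1, the cytosolic partner of Shmt2, fell with DMSO by 0.71 ± 0.26 in the authors' deposited table. With I-CBP112 1 of the 23 (4.35%) passed, beside 9.90% of all genes tested.

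**Figure D4:**
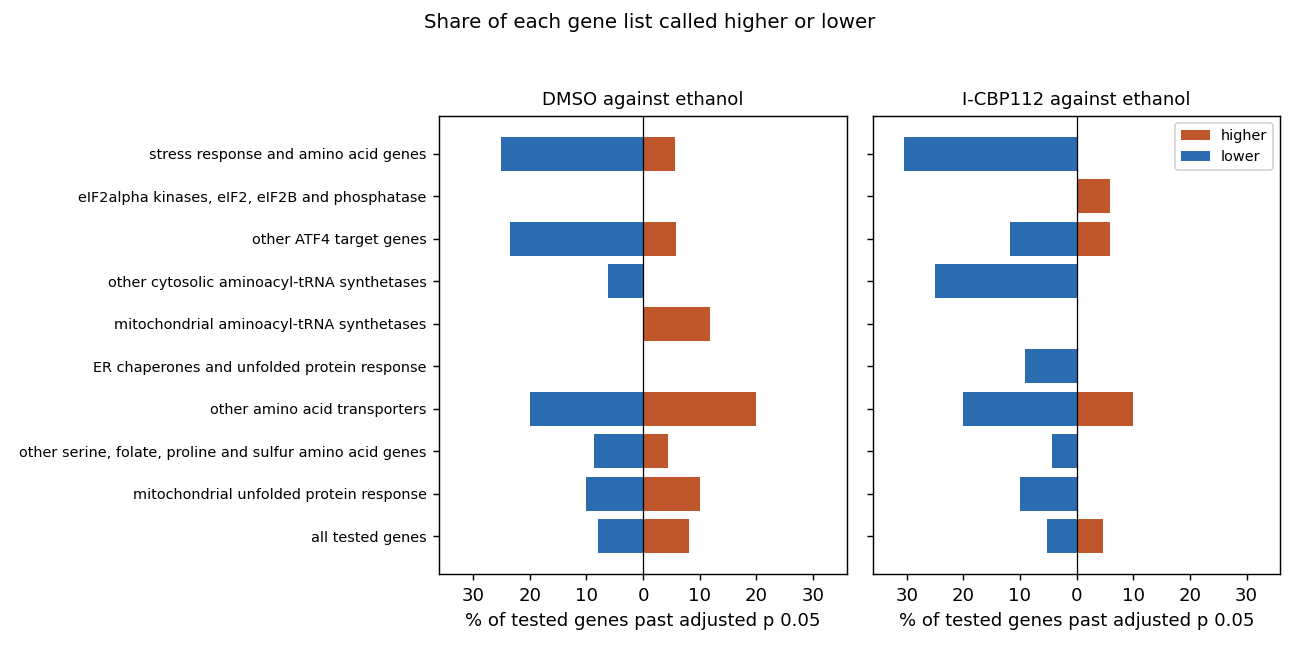
Share of tested genes (x axis, percent) higher (right) or lower (left) past adjusted p 0.05 with DMSO and with I-CBP112 against ethanol, for the stress response and amino acid genes, 8 other lists and all tested genes. The lower shares of all tested genes are 7.90% with DMSO and 5.25% with I-CBP112.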

How the data were processed

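Per the submitters' processing notes, the authors used kallisto 0.43.1, GRCm38.p5 and DESeq2 (no version stated). The 3 deposited tables hold, per the file headers, the signal baseMean (the authors' mean normalized count over 8 libraries), the log2 fold change with its SE, the Wald statistic (a score), the p-value and the adjusted p of the authors. They name no reference group, which was read as ethanol, the group without a table. Of 2312 genes with a deposited mean normalized count under 0.16, 596 were lower in all 3 tables, 1707 were higher in 1 table only and 4 were lower in some tables but not all.

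With Python 3.11.15, each group's mean was recovered from the overall mean and the 3 fold changes. Differences between treatments were divided by an SE rebuilt with 1 dispersion per gene, which gave 98.9% to 99.0% of the deposited SEs to within 1%; normal p-values were adjusted by Benjamini-Hochberg over 14830 genes. The step was run on simulated counts whose SEs came from the true dispersions, with no batch. That run cannot show whether normal p-values hold with 2 libraries per group. The authors' adjusted p below 0.05 was taken as passing. All genes were accounted for, and values are given for those that passed in any comparison and for genes that define the pathway. From the other lists up to 4 genes past the test, with means of 50 or more, were named; a few genes are not reported here. The genes and lists were chosen with earlier results of these data known. Alternatives were other scalings, other sets for adjustment, a fold threshold, a t distribution and a larger SE.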

Additional observations from a re-analysis of the deposited data

How the results depend on the processing

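Replicates could not be left out in turn, since the tables hold no values of single libraries. No paired analysis was possible because the columns carry no library numbers. Of the 11 genes past the test with DMSO and the 11 with I-CBP112, 0 in each remained when the statistic was read from Student's t with 4 degrees of freedom, under which 1 and 0 of all genes passed; the same alternative gave 0 for I-CBP112 against DMSO, 0 for C646 against DMSO and 0 for I-CBP112 against C646. Asking for at least a 2-fold change gave 3 with DMSO, 1 with I-CBP112, and 1 in each of the 3 comparisons between treatments. Adjusted over all genes with a p-value, 7 of the genes passed with I-CBP112. The upper bound of the standard error gave 1 for I-CBP112 against DMSO, 3 for C646 against DMSO and 1 for I-CBP112 against C646, in place of 2, 10 and 8. Scaling to equal totals or centring on the median tested gene kept every comparison's count within 1.5 times and turned no passing gene's direction; they took Atf4, Slc7a5 and Slc3a2 with I-CBP112 and Atf3 in C646 against DMSO out of the calls, took Atf4 out of I-CBP112 against C646, and brought in Atf3 with I-CBP112, Shmt2 and Aldh18a1 with DMSO, Shmt2 in C646 against DMSO and Aldh18a1 in I-CBP112 against C646. C646 against ethanol gave 0 under every alternative run.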
